A study of Mus musculus with 6 samples.

Results

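The fibrous sheath and the outer dense fibres are cytoskeletal structures that surround the axoneme of the mammalian sperm tail, and 10 genes that encode their proteins are described here in the testis of mice with a germ cell deletion of Sel1L. The members were listed by name as Akap3, Akap4, Ropn1, Ropn1l, Spa17, Cabyr, Fscb, Odf1, Odf2 and Odf3. All 10 were found by symbol among the 55536 genes of the count tables, and all 10 passed the filter on low counts that left 21465 genes for testing. Testis RNA came from 3 KOStra8 and 3 HETStra8 mice, all 7 weeks old, with 1 poly(A)+ library per mouse. KOStra8 mice carried Sel1L flox/∆ with Stra8-Cre, so that both copies of the gene could be lost in male germ cells. The deposited design describes the HETStra8 littermates as Sel1L flox/∆ and names no Cre for them. The study's results instead pool Sel1L flox/∆ mice and Sel1L flox/+ mice with Stra8-Cre under that name. No genotype was given for each mouse. Every genotype named for either group thus left at most 1 intact allele of Sel1L in germ cells, and no wild-type library was analysed here. The Stra8 promoter drives Cre in male germ cells, and the whole testis also held Sertoli, Leydig and other somatic cells in which the floxed allele is not deleted.

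SEL1L is the adaptor of the ubiquitin ligase HRD1 in the degradation of misfolded proteins of the endoplasmic reticulum. The outer dense fibres run beside the microtubule doublets of the middle and principal pieces, and give the tail stiffness and protection against shear. The fibrous sheath encloses the principal piece as longitudinal columns joined by ribs, and holds protein kinase A, glycolytic enzymes and calcium-binding proteins close to the axoneme. The genes are transcribed mostly in haploid germ cells, ahead of the stages at which the tail is assembled, so their transcripts reflect both how many spermatids a testis holds and how much RNA each spermatid makes. In RNA of whole testis, fewer spermatids and less RNA per spermatid cannot be told apart.

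Promoter sequences of the RefSeq table (GRCm38.p6, from 250 bases before to 50 bases after each start) were searched for 8 of the 10 genes, with 13 promoters among them. No promoter of Odf1 or Cabyr was searched, so the matches below say nothing about these members. The promoters of Akap3, Akap4 and Fscb are shown because, of the members searched, they hold TGATGTCA. This octamer is related to the cAMP response element that CREM and other CREB family factors bind. The capitals mark that octamer in all of them, and in Akap3 and Akap4 also the 20-base stretch that ends in it. Akap3 lies at chr6:126852848-126853147 on the plus strand, Akap4 at chrX:7067265-7067564 on the plus strand and Fscb at chr12:64474849-64475148 on the minus strand, each printed 5′ to 3′ in the direction of transcription.
Akap3: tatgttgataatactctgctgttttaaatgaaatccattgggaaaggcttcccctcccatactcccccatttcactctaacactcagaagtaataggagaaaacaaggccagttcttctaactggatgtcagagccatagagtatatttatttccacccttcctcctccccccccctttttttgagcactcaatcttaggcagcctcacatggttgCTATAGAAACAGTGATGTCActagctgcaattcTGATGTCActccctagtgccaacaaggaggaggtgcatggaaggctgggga
Akap4: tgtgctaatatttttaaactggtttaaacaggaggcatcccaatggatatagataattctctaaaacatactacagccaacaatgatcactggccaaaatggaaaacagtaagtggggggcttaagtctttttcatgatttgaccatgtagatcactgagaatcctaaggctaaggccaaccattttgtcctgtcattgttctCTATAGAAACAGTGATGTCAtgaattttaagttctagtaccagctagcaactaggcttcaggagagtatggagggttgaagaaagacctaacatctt
Fscb: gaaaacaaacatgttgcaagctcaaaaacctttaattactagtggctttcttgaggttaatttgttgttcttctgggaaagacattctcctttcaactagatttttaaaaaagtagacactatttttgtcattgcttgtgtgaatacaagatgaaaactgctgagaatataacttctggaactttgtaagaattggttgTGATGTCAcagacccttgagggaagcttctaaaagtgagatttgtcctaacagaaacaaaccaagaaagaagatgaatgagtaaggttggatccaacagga
The stretch CTATAGAAACAGTGATGTCA was the longest run of letters shared between promoters of different members, on the same strand in both genes. It began 34 bases before the start of Akap3 and 47 bases before the start of the Akap4 promoter shown. Another Akap4 promoter, at chrX:7067960-7068259, held neither the stretch nor TGATGTCA. The stretch occurred in the promoters of 2 of the 27025 genes searched, these being Akap3 and Akap4. Promoters outside that search could hold it too. TGATGTCA, searched on both strands, occurred in 3 of the 8 members searched, against 4.18% of all genes searched, and Akap3 held it 2 times. The palindrome TGACGTCA occurred in 0 of the 8 members against 2.03% of genes, and TATAAA in 0 against 15.7%. These motifs were picked after the member sequences were seen, the matches are descriptions of letters, and binding was not measured here.

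The targeted gene differed between the groups as labelled. Sel1l was at 49.3, 47.6 and 42.4 CPM (a gene's counts relative to the library total scaled by TMM) in the 3 HETStra8 mice and at 24.2, 22.0 and 20.3 CPM in the 3 KOStra8 mice, so that KOStra8 held 47.7% of the HETStra8 mean, with a log2 fold change of -1.07 in edgeR's quasi-likelihood test (adjusted p = 0.000610). Libraries held between 28875108 and 36526695 counts on genes. In a chi-square comparison of counts over genes, HETStra8 mouse 3 stood closer to the KOStra8 libraries (8.89 to 11.5 per degree of freedom) than to the other HETStra8 libraries (13.1 and 25.1). Values without it are given for Akap3, Akap4, Spa17, Fscb, Odf3 and several other tail genes. Because that mouse was singled out for its closeness to KOStra8, leaving it out favours larger differences. Of all genes tested, 44 were called without it and 2 with all mice. The p-values without that mouse are therefore descriptions. Log2 fold changes also followed the GC content of genes, at a Spearman's rho of -0.46 (21457 genes, a description, since genes are not replicates). Values corrected for GC content and transcript length are given beside the uncorrected ones for the 10 genes and the other tail genes named.

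None of the 10 genes was called between KOStra8 and HETStra8 at the study's cutoffs, an adjusted p below 0.01 and a fold of 2, in edgeR's quasi-likelihood test. Of the 21465 genes tested, 2 were called (0.00932%). These are far fewer than the study reported for the same groups at those cutoffs. The largest differences were those of Akap3, at 89.7% of the HETStra8 mean, and of Fscb, at 113%, and every 95% interval lay between a KOStra8 to HETStra8 ratio of 0.812 and one of 1.28, well inside a fold of 2. In this test 8 genes had a negative and 2 a positive log2 fold change, and the median over the 10 was -0.097, beside -0.0094 over all genes tested. Only Akap3 had an unadjusted p below 0.05, which makes 1 of 10 genes lower, against 5.12% of all genes lower and 7.13% higher at that limit. For 4 of the 10 genes, Akap3, Cabyr, Odf1 and Odf2, the highest KOStra8 value was under the lowest HETStra8 value, as it was for 8.43% of all genes tested. The reverse held for 0 of the 10 and for 9.33% of all genes. The 10 genes are read from the same 6 libraries and the same spermatids, so their directions are not independent of each other. With GC content and length corrected, 6 genes were lower, the median was -0.036 and 0 genes had an unadjusted p below 0.05. Over all 21465 genes the correction gave 51.7% lower and a median of -0.0073. At that limit 808 of them were lower and 828 higher.

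**Figure D1:**
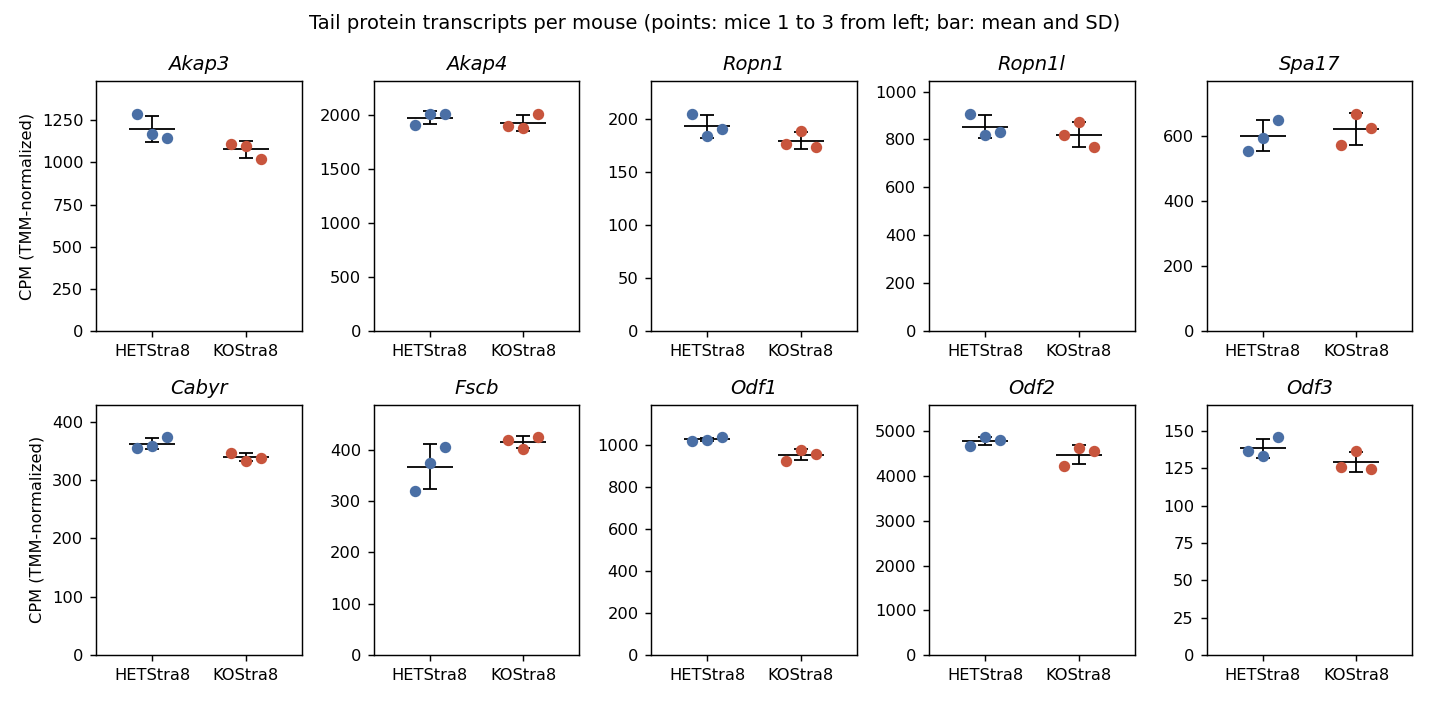
TMM-normalized CPM of each of the 10 genes (vertical axes from 0, a scale of its own per gene) in the 3 HETStra8 mice (blue) and the 3 KOStra8 mice (red), with the mean and SD of 3 mice as black bars. The groups lie apart for Akap3, Cabyr, Odf1 and Odf2, with KOStra8 lower, and overlap for the other 6 genes.

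Akap3 and Akap4 encode the anchoring proteins that make up the ribs and columns of the fibrous sheath and tether protein kinase A there. AKAP3 is laid down first and AKAP4, which is encoded on the X chromosome and cut from a precursor, completes the sheath. Akap3 (ENSMUSG00000030344, chr6:126853098-126874308, GRCm38) was at 1288, 1168 and 1144 CPM in HETStra8 mice 1 to 3 and at 1111, 1099 and 1021 CPM in KOStra8 mice 1 to 3. The highest KOStra8 mouse lay just under the lowest HETStra8 mouse. The mean was 1200 ± 77.6 CPM in HETStra8 and 1077 ± 48.9 CPM in KOStra8 (SD, n = 3 mice each), a log2 fold change of -0.16 (SE 0.0675, 95% interval -0.30 to -0.011), which missed the threshold in edgeR's quasi-likelihood test (adjusted p = 0.377). The corrected log2 fold change of Akap3 was -0.096, with a 95% interval of -0.21 to 0.021 that included 0. When 1 mouse was left out, the uncorrected one ran from -0.18, without HETStra8 mouse 3, to -0.10, without HETStra8 mouse 1. Among those fits, only the one without HETStra8 mouse 3 gave Akap3 an unadjusted p below 0.05 in edgeR's quasi-likelihood test.

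Akap4 (ENSMUSG00000050089, chrX:7067519-7078609), without which mouse sperm fail to complete the fibrous sheath, did not differ beyond the spread between mice. Its level was 1906, 2012 and 2011 CPM in HETStra8 mice 1 to 3 and 1895, 1876 and 2012 CPM in KOStra8 mice 1 to 3. The groups overlapped, and KOStra8 mouse 3 was level with HETStra8 mice 2 and 3. KOStra8 held 97.5% of the HETStra8 mean, with a log2 fold change of -0.036 (95% interval -0.16 to 0.093; edgeR's quasi-likelihood test, adjusted p = 0.845). The interval leaves room for a decrease to a ratio of 0.892 or an increase to one of 1.07. The corrected log2 fold change was -0.072, and without HETStra8 mouse 3 the uncorrected one was -0.013. Both genes carry the 20-base stretch printed above, and whether their differences differ from each other was not tested.

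Ropn1 and Ropn1l encode ropporin and its close relative, which share with the regulatory subunit of protein kinase A the domain that docks on anchoring proteins and bind AKAP3 through it. Ropn1 (ENSMUSG00000022832, chr16:34649921-34678618) was at 205, 184 and 191 CPM in HETStra8 mice 1 to 3 and at 176, 189 and 174 CPM in KOStra8 mice 1 to 3. KOStra8 mouse 2 lay inside the HETStra8 range and the other KOStra8 mice below it. The log2 fold change of Ropn1 was -0.10 (SE 0.0739; edgeR's quasi-likelihood test, adjusted p = 0.588), and -0.13 with the correction.

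Ropn1l (ENSMUSG00000022236, chr15:31441211-31453737) was at 908, 819 and 831 CPM in HETStra8 mice 1 to 3 and at 819, 874 and 768 CPM in KOStra8 mice 1 to 3. The groups overlapped, with the second highest value of all in KOStra8 mouse 2. Its log2 fold change was -0.056 (95% interval -0.21 to 0.095; edgeR's quasi-likelihood test, adjusted p = 0.784) and turned to 0.038 with the correction, so that no direction can be given for Ropn1l.

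Spa17, sperm protein 17, carries the same kind of docking domain, binds anchoring proteins and is also made in other ciliated cells. It was at 555, 595 and 650 CPM in HETStra8 mice 1 to 3 and at 571, 669 and 624 CPM in KOStra8 mice 1 to 3. The groups overlapped across most of their range, and the log2 fold change was 0.049 (SE 0.078, 95% interval -0.12 to 0.22; edgeR's quasi-likelihood test, adjusted p = 0.834). It was 0.080 with the correction and 0.12 without HETStra8 mouse 3. Spa17 (ENSMUSG00000001948, chr9:37603290-37613722, minus strand) shares 391 exon bases with Siae on the opposite strand, and 25.8% of its 50-base sequences are also held by that gene. The study's methods name a directional library kit, but the strand setting of the counting was not given in the sources used here. Whether reads over those bases were counted for the right gene therefore cannot be said with certainty. Siae itself was at 19.6 CPM in HETStra8 and 17.6 CPM in KOStra8.

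Cabyr and Fscb encode calcium-binding proteins of the fibrous sheath. CABYR is phosphorylated on tyrosine when sperm capacitate, and FSCB binds CABYR and is a substrate of protein kinase A. Cabyr (ENSMUSG00000024430, chr18:12740322-12755260) was at 356, 359 and 373 CPM in HETStra8 mice 1 to 3 and at 346, 333 and 338 CPM in KOStra8 mice 1 to 3. The groups did not overlap, yet they lay close together and each was tight, with coefficients of variation of 2.57% and 1.98%. The log2 fold change of Cabyr was -0.097 (95% interval -0.24 to 0.041; edgeR's quasi-likelihood test, adjusted p = 0.558), and -0.093 with the correction.

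Fscb (ENSMUSG00000043060, chr12:64471330-64474690), whose transcript lies in 1 exon, was the member with the highest estimate in KOStra8. It was at 320, 375 and 406 CPM in HETStra8 mice 1 to 3 and at 419, 402 and 424 CPM in KOStra8 mice 1 to 3. HETStra8 mice 1 and 2 lay below every KOStra8 mouse, and HETStra8 mouse 3 lay within the KOStra8 range. The mean was 367 ± 43.7 CPM in HETStra8 and 415 ± 11.8 CPM in KOStra8 (SD, n = 3 mice each), a log2 fold change of 0.18 (SE 0.0829; edgeR's quasi-likelihood test, unadjusted p = 0.05004, adjusted p = 0.408). Without HETStra8 mouse 3 it was 0.27 (edgeR's quasi-likelihood test, adjusted p = 0.0498), still under a fold of 2, and without HETStra8 mouse 1 it was 0.087. The value with correction was 0.12 (95% interval -0.019 to 0.27). The size of the Fscb difference therefore rested on which HETStra8 mice were included.

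**Figure D2:**
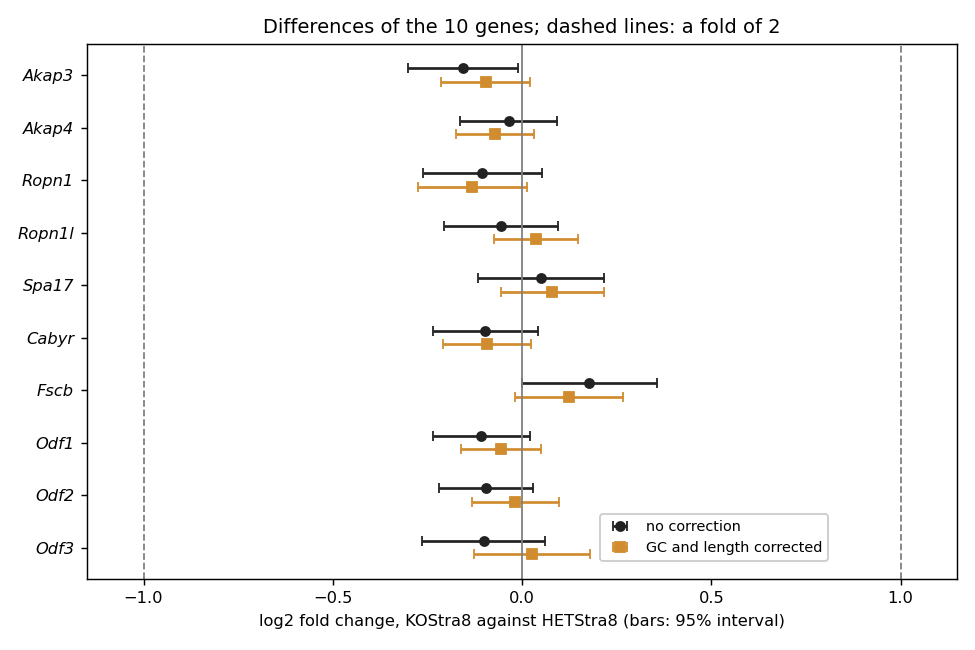
Log2 fold change of KOStra8 against HETStra8 (horizontal axis) with its 95% interval for each of the 10 genes, without (black circles) and with (orange squares) correction for GC content and transcript length, with dashed lines at a fold of 2. All intervals lie far inside the dashed lines, and Ropn1l and Odf3 change sign with the correction.

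Odf1, Odf2 and Odf3 encode proteins of the outer dense fibres. ODF1 is a small, cysteine-rich relative of the small heat shock proteins whose loss detaches sperm heads from tails, ODF2 is the major fibre protein that also exists as a centrosomal form in dividing and ciliated cells, and ODF3 was found along the tail's fibres. Odf1 (ENSMUSG00000061923, chr15:38219203-38226735) was at 1021, 1026 and 1038 CPM in HETStra8 mice 1 to 3 and at 926, 979 and 958 CPM in KOStra8 mice 1 to 3. The groups did not overlap, and the HETStra8 mice differed among themselves by a coefficient of variation of only 0.861%. KOStra8 held 92.8% of the HETStra8 mean, with a log2 fold change of -0.11 (SE 0.0598, 95% interval -0.24 to 0.020; edgeR's quasi-likelihood test, adjusted p = 0.481) and -0.055 with the correction. That test sets the spread of a gene partly from other genes, so the tight HETStra8 values do not by themselves bring Odf1 past the threshold.

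Odf2 (ENSMUSG00000026790, chr2:29889221-29931746) gave the most counts of the 10, between 134244 and 166294 per library. It was at 4682, 4868 and 4799 CPM in HETStra8 mice 1 to 3 and at 4234, 4638 and 4555 CPM in KOStra8 mice 1 to 3. The groups did not overlap, although KOStra8 mouse 2 lay just under HETStra8 mouse 1. KOStra8 held 93.6% of the HETStra8 mean, with a log2 fold change of -0.096 (95% interval -0.22 to 0.028; edgeR's quasi-likelihood test, adjusted p = 0.520), which shrank to -0.018 with the correction. The count table does not separate the tail form of Odf2 from the centrosomal form.

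Odf3 (ENSMUSG00000025482, chr7:140847805-140851018) gave the fewest counts, from 3964 to 4857 per library. It was at 136, 133 and 146 CPM in HETStra8 mice 1 to 3 and at 126, 137 and 124 CPM in KOStra8 mice 1 to 3. KOStra8 mouse 2 lay within the HETStra8 range and the other KOStra8 mice below it. The log2 fold change was -0.10 (95% interval -0.26 to 0.061; edgeR's quasi-likelihood test, adjusted p = 0.613) and 0.027 with the correction, so that no direction can be given for Odf3. Without HETStra8 mouse 3 it was -0.053.

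Summed over the 10 genes, the level was 11502 ± 111 CPM in HETStra8 and 10939 ± 291 CPM in KOStra8 (SD, n = 3 mice each), so that KOStra8 held 95.1% of the HETStra8 mean. The sums of the KOStra8 mice lay at 92.4%, 97.3% and 95.6% of the HETStra8 mean for mice 1 to 3, and those of the HETStra8 mice between 98.9% and 101%. Odf2 alone made up 39.9 to 42.2% of the sum, and without Odf2 KOStra8 held 96.2%. The summed level of 12 elongating spermatid markers, such as protamines and transition proteins, stood at 96.4% of HETStra8 in the KOStra8 mice, with ranges of 12151 to 12605 CPM in HETStra8 and 10933 to 12561 CPM in KOStra8. That of 14 round spermatid markers stood at 95.8%, with ranges of 2620 to 2775 and 2513 to 2729 CPM. The mouse with the lowest sum of the 10 genes, KOStra8 mouse 1, also had the lowest sum of both spermatid lists, at 88.8% and 92.4% of the HETStra8 means. Every marker of these lists was detected, and the part of spermatid content in the tail gene values was not tested. When libraries were scaled to the elongating spermatid markers in place of TMM, the median log2 fold change of the 10 genes was -0.049. The median over all genes tested was then 0.039, so the scaling moved all genes and not the 10 alone.

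**Figure D3:**
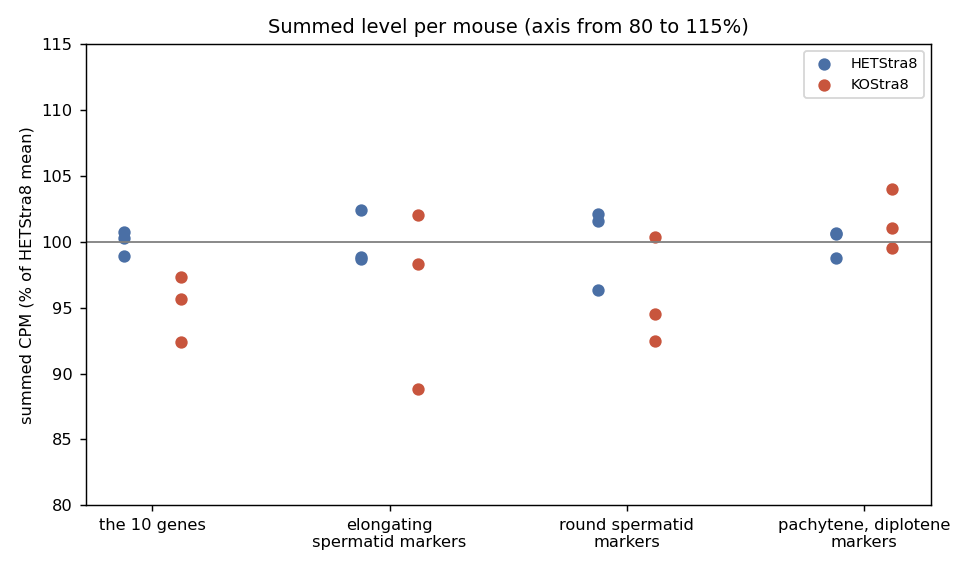
Summed CPM of the 10 genes and of 3 germ cell marker lists in each mouse, as a percent of the HETStra8 mean (vertical axis cut at 80%, not from 0), with HETStra8 mice in blue and KOStra8 mice in red. The KOStra8 mice lie at 92.4 to 97.3% for the 10 genes, and KOStra8 mouse 1 is the lowest for both spermatid lists.

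Marker lists of other testis cells stood between 80.4% and 140% of HETStra8 in KOStra8. The 10 markers of leptotene and zygotene spermatocytes were the list at 140%, with sums of 447 to 705 CPM in HETStra8 and 782 to 790 CPM in KOStra8, whereas 11 pachytene and diplotene markers stood at 102% and 10 spermatogonial markers at 99.2% of HETStra8. The leptotene and zygotene sum was carried by a few genes, since the median log2 fold change of the 10 markers was 0.099, 3 of them were lower, and Sycp1 went from 125 to 246 CPM (log2 fold change 0.97; edgeR's quasi-likelihood test, adjusted p = 0.424). Somatic lists were at or below HETStra8, with 89.8% for 10 Sertoli cell markers, 80.4% for 8 Leydig cell markers, 90.5% for 5 peritubular myoid markers, 92.6% for 7 macrophage markers, 90.2% for 5 endothelial markers and 87.0% for 5 blood markers. Their ranges overlapped between the groups. The 8 epididymis markers, of which 2 were tested, stood at 71.6% and summed to 4.67 to 14.7 CPM over the 6 libraries, with Lcn8 at 0 in all of them. No gene of these marker lists was called in edgeR's quasi-likelihood test, and the part of these cells in the tail gene values was not tested.

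Per exon length, 6 of the 10 genes were among the 79 most abundant of the 21465 genes tested in HETStra8 testis. Levels between genes are given as RPKM, counts divided by exon length and library total, from the mean of 3 HETStra8 mice. Odf1 stood at 931 ± 8.02 RPKM (rank 10 of all genes tested) and Ropn1l at 891 ± 50.2 RPKM (rank 16), and these neighbours overlapped between mice. Akap4 followed at 653 ± 20.1 RPKM (rank 30) and Spa17 at 566 ± 44.9 RPKM (rank 39), without overlap, then Odf2 at 482 ± 9.48 RPKM (rank 56) and Akap3 at 381 ± 24.6 RPKM (rank 79). A lower tier began with Cabyr at 145 ± 3.72 RPKM and Ropn1 at 144 ± 8.10 RPKM, which did not differ beyond their spread, and ended with Fscb at 109 ± 12.996 RPKM and Odf3 at 67.1 ± 3.14 RPKM. The partners Ropn1l and Ropn1, and likewise Akap4 and Akap3, thus stood at different levels in the same testes. In KOStra8 the order of the means was the same, from Odf1 at 864 RPKM down to Odf3 at 62.6 RPKM.

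The place of Odf2 depended on the length used. Its exons cover 9919 bases over all annotated transcripts, whereas its longest transcript has 4291 bases, by which Odf2 stood at 1115 RPKM and first of the 10. Spa17 rose likewise to 822 RPKM, above Akap4. The other 8 genes moved by less and kept their order among themselves under either length.

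**Figure D4:**
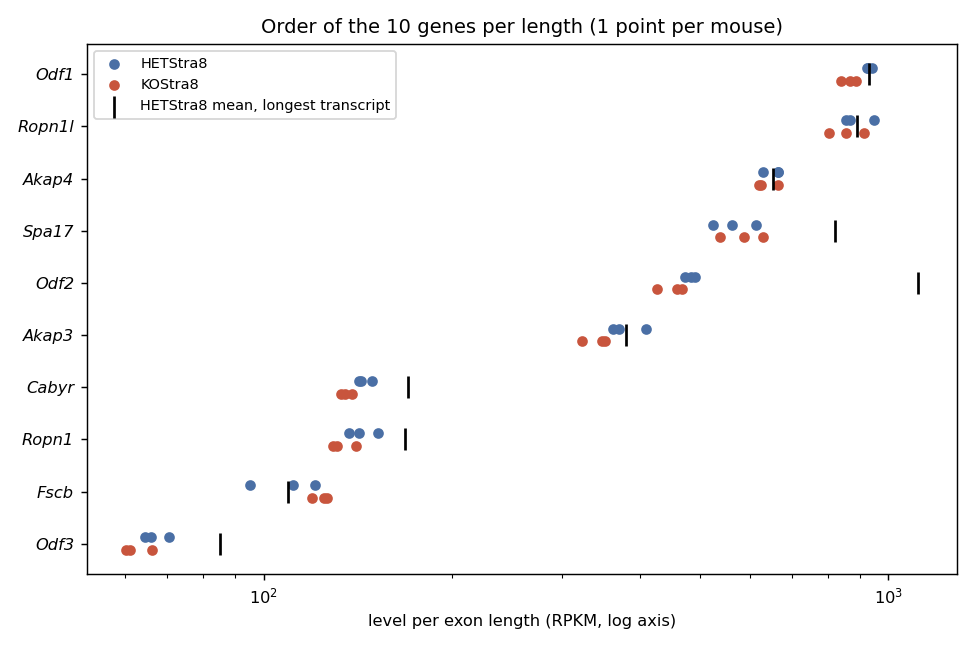
Level per exon length (RPKM, log axis) of the 10 genes in each HETStra8 (blue) and KOStra8 (red) mouse, ordered by the HETStra8 mean, with a black tick at the HETStra8 mean computed with the longest transcript. Odf1 and Ropn1l lead at 931 and 891 RPKM, Odf3 is last at 67.1 RPKM, and the tick of Odf2 lies far to the right at 1115 RPKM.

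The 10 genes did not vary as 1 block from mouse to mouse. Over the 6 libraries, Pearson's r of log2 CPM between pairs of members had a median of 0.38 over 45 pairs, 31 of them above 0. The range ran from -0.92 for Akap3 and Fscb to 0.93 for Odf1 and Odf2, whose proteins bind each other in the fibre. These values describe 6 libraries that share depth, scaling and group, and the members are not replicates. The mean of the members' standardized log2 CPM was highest in HETStra8 mouse 3 at 0.74 and lowest in KOStra8 mouse 1 at -0.72, with KOStra8 mouse 2 at 0.0028 between the groups. Among 10003 genes above 10 CPM, those whose log2 CPM followed that mean most closely over the 6 libraries were Caml (r = 0.98), Tes (r = 0.98), Svbp (r = 0.98), Cox6c (r = 0.98) and Dbil5 (r = 0.98). An r above 0.9 was found for 93 of these genes, and the 5 were picked for their r, which is a description of 6 libraries.

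Lists of other genes tied to these structures or to the tail had medians close to that of the 10, and not every gene listed is confined to them. Among marker lists, the median was -0.089 for elongating spermatids and -0.099 for Sertoli cells. It was -0.047 for round spermatids and 0.0043 for pachytene and diplotene spermatocytes. Of 20 other genes listed for the fibrous sheath and for protein kinase A in the tail, 0 were called. In this list 13 had a lower and 7 a higher estimate, and the median log2 fold change was -0.087, or -0.0094 with the correction. At an unadjusted p below 0.05, 4 of the 20 were lower and 2 higher, against 5.12% and 7.13% of all genes tested. The KOStra8 mice lay below without overlap for 5 and above for 3, against 8.43% and 9.33% of all genes. With the correction 11 were lower and 9 higher, 1 in each direction at the same unadjusted limit. Of all 21465 genes, 808 were lower and 828 higher at that limit with the correction. Gapdhs, the glycolytic enzyme anchored in the fibrous sheath, was at 1459, 1453 and 1421 CPM in HETStra8 mice and at 1184, 1313 and 1282 CPM in KOStra8 mice, without overlap (log2 fold change -0.20; edgeR's quasi-likelihood test, adjusted p = 0.245). Akap1, which anchors the kinase at mitochondria, was at 849 ± 58.2 CPM in HETStra8 and 725 ± 36.6 CPM in KOStra8 (log2 fold change -0.23, adjusted p = 0.233 in the same edgeR test). Akap11, another anchoring protein expressed in the male germ line, stood the other way at 55.7 ± 3.20 and 71.7 ± 5.56 CPM (log2 fold change 0.36, adjusted p = 0.143 in the same edgeR test). With the correction these became -0.088, -0.12 and 0.12. Without HETStra8 mouse 3 they were -0.20, -0.26 and 0.42, with adjusted p of 0.0880, 0.0443 and 0.0124 in the same edgeR test. Sord, sorbitol dehydrogenase, and Gstm5, a glutathione transferase of the sheath, were the other abundant genes of the list, at log2 fold changes of -0.11 and -0.074, or -0.052 and -0.044 with the correction.

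Fsip2, which encodes a fibrous sheath interacting protein, had the highest estimate of all the tail genes and is named after its values were seen. It was at 206, 258 and 373 CPM in HETStra8 mice 1 to 3 and at 506, 450 and 543 CPM in KOStra8 mice 1 to 3. Every KOStra8 mouse lay above the HETStra8 range, and HETStra8 mouse 3 lay nearest to them. The log2 fold change was 0.84 (SE 0.237; edgeR's quasi-likelihood test, adjusted p = 0.3003) and fell to 0.40 with the correction. Without HETStra8 mouse 3 it was 1.12 (edgeR's quasi-likelihood test, adjusted p = 0.000149), the only tail gene of any list called in that setting. Since that mouse was singled out for its closeness to KOStra8, this call is a description and not an independent test.

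Of 20 other genes listed for the outer dense fibres and for proteins tied to them, 19 were tested and Odf3l2 was not. None was called, 15 had a lower and 4 a higher estimate, and the median was -0.11, or -0.035 with the correction. At an unadjusted p below 0.05, 3 were lower and 2 higher, against 5.12% and 7.13% of all genes tested. The KOStra8 mice lay below without overlap for 6 and above for 1, against 8.43% and 9.33% of all genes. With the correction 13 were lower and 6 higher, with 2 and 1 at the same unadjusted limit, against 808 and 828 of all 21465 genes. Tekt4, a tektin of the tail, was at 262, 266 and 277 CPM in HETStra8 mice and at 223, 232 and 211 CPM in KOStra8 mice (log2 fold change -0.27; edgeR's quasi-likelihood test, adjusted p = 0.162; -0.14 with the correction). The tektins Tekt1 and Tekt2 were at -0.11 and -0.13, or -0.044 and -0.027 with the correction. Tsga10, a protein of the sperm neck and tail, was at 213, 250 and 320 CPM in HETStra8 mice and at 346, 339 and 350 CPM in KOStra8 mice, with HETStra8 mouse 3 again nearest to KOStra8 (log2 fold change 0.40; edgeR's quasi-likelihood test, adjusted p = 0.264; 0.13 with the correction). Without that mouse Tsga10 was at 0.59 (edgeR's quasi-likelihood test, adjusted p = 0.000227), under a fold of 2. Oaz3, the testis antizyme whose long product lies in the tail, was at 1316 ± 10.9 CPM in HETStra8 and 1167 ± 34.4 CPM in KOStra8, and its log2 fold change of -0.17 became -0.33 with the correction (adjusted p = 0.0555 in edgeR's quasi-likelihood test).

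Of 15 genes listed for the mitochondrial sheath and the annulus, which adjoin the 2 structures in the tail, 13 were matched and tested. None was called, 12 had a lower and 1 a higher estimate, and the median was -0.096, or -0.043 with the correction. At an unadjusted p below 0.05, 1 was lower and 0 higher, against 5.12% and 7.13% of all genes tested. The KOStra8 mice lay below without overlap for 3 and above for 1, against 8.43% and 9.33% of all genes. With the correction 9 were lower and 4 higher, 0 of them at the same unadjusted limit, against 808 lower and 828 higher of all 21465 genes. Smcp and Gk2, of the mitochondrial capsule and sheath, were at -0.031 and -0.043, at -0.041 and -0.11 with the correction, and at 0.033 and -0.0998 without HETStra8 mouse 3, so that no direction can be given for Smcp. Gpx4, the selenoperoxidase that becomes a structural capsule protein, was at -0.14, Armc12 at -0.20 and the mitochondrial fission protein Fis1 at -0.18, with adjusted p of 0.343 or more in edgeR's quasi-likelihood test. With the correction these were -0.011, -0.079 and -0.10. Over all genes tested 51.5% had a lower estimate, or 51.7% with the correction.

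**Figure D5:**
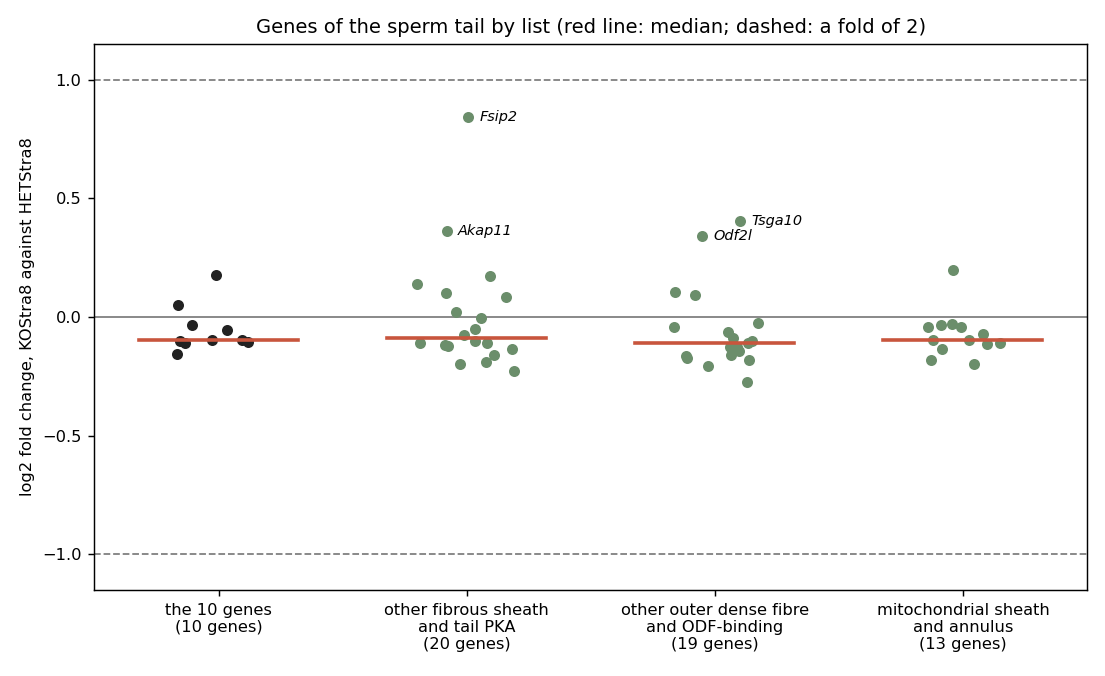
Log2 fold change of KOStra8 against HETStra8 (vertical axis) for the 10 genes and for 3 lists of other sperm tail genes, 1 point per gene, with the median of each list as a red line and dashed lines at a fold of 2. The medians lie between -0.11 and -0.087 in every list, and Fsip2 stands apart at 0.84.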

How the data were processed

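Testis RNA of 3 KOStra8 and 3 HETStra8 mice was compared. The authors deposited raw read counts per Ensembl gene, without normalization, 1 table per mouse. The submitters' processing notes list FastQC, Trimmomatic, STAR 2.7.1a, Picard 2.20.4, StringTie 2.0.4, featureCounts 1.6.0, HTSeq and ChIPseeker and the builds mm10 and GRCm38, with no role or order. Which of them made the counts, and with which strand setting, is not given in the sources used here. All 55536 identifiers are in GENCODE mouse M21 (GRCm38), from which symbols, positions, lengths and GC content were taken.

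Counts were analysed with edgeR 4.0.16 in R 4.3.3 (filterByExpr, TMM, robust quasi-likelihood fit with genotype only, two-sided F test, Benjamini-Hochberg adjustment over 21465 genes). All 6 mice entered. A gene was called at an adjusted p below 0.01 and a fold of 2. CPM and RPKM are TMM-normalized, log2 CPM used a prior count of 2, and intervals cover 95%. The common biological coefficient of variation was 0.160, and the smallest p open to an exact permutation test with 3 mice a group is 0.1. GC content and transcript length were corrected by loess offsets per library (span 0.3, fitted above a log2 CPM of 2), and the 8 genes that lack a GC value kept their plain offsets.

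Alternatives were DESeq2's size factors, library totals or elongating spermatid markers for scaling, either no filter on low counts or a minimum of 10 in each library, the replicate number as a block, the GC content and length correction without and with that block, DESeq2 1.42.0, limma-voom (limma 3.58.1), an adjusted p of 0.05 with and without the fold, and leaving out each mouse. The steps were tested on simulated data. The genes named are the 10 members, Sel1l, from each other tail list those called, the 3 with the smallest unadjusted p and the 3 most abundant per length, and the 5 genes most like the members' mean profile. Fsip2, Siae and Sycp1 were added after their values were seen. The members and lists were chosen with earlier results of these data known. The study calls the mice littermates, but which of them shared a litter is not recorded. The p-values set each difference against the spread between these mice, moderated across genes, and take no account of litters.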

Additional observations from a re-analysis of the deposited data

How the results depend on the processing

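No member was called in any of 16 alternative fits, or at an adjusted p of 0.05 with or without the fold of 2 in the fit of all mice. Fscb reached an adjusted p of 0.0498 in edgeR's quasi-likelihood test without HETStra8 mouse 3, where its difference stayed under a fold of 2. That mouse was singled out for its closeness to KOStra8, which favours larger differences without it. The number of members at an unadjusted p below 0.05, 1 in the fit of all mice, was 2 with DESeq2's size factors, library totals, no filter, at least 10 counts per library, the replicate block and limma-voom. It was 0 with DESeq2, with the GC content and length correction, and with that correction and the block. Leaving out 1 mouse at a time gave 2 without HETStra8 mouse 3 and 0 without any other mouse. The median log2 fold change of the members, -0.097, was -0.049 with elongating spermatid markers as scale, where the median over all genes tested was 0.039. The members' median was -0.036 with the GC content and length correction and -0.037 with the replicate block added to it. It ran from -0.107 to -0.0639 when 1 mouse was left out, and was -0.0650 without HETStra8 mouse 3. The medians of the fibrous sheath and kinase genes, the outer dense fibre genes and the mitochondrial sheath and annulus genes, in that order, were -0.039, -0.062 and -0.047 with spermatid markers as scale. They were -0.0094, -0.035 and -0.043 with the correction, and -0.0087, -0.035 and -0.041 with the correction and the replicate block. Leaving out 1 mouse gave -0.0949 to -0.0477, -0.126 to -0.0773 and -0.107 to -0.0516 in the same order, and from 0 to 1 fibrous sheath genes called, the 1 being Fsip2 without HETStra8 mouse 3.

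Directions reversed for 4 members. Akap4 was at 0.012 with spermatid markers as scale, where the median over all genes tested was 0.039. Ropn1l was at 0.038 and Odf3 at 0.027 with the GC content and length correction, and at 0.037 and 0.030 with the replicate block added. Spa17 ran from -0.0042 to 0.12 when 1 mouse was left out, and was -0.0042 without HETStra8 mouse 1 and -0.0011 without KOStra8 mouse 2. The cause of these changes was not tested. Whether replicate numbers pair the mice is not recorded. The deviations of same-numbered mice from their group means correlated at -0.058, -0.15 and 0.22, and only HETStra8 mouse 3 correlated best with its own number. Deviations within so small a group offset each other, so these values cannot show whether a pairing exists. The replicate block moved the genes called among all tested from 2 to 5. Without a filter 39 of all genes were called, with DESeq2 6, and without each mouse from 1 to 44, the 44 without HETStra8 mouse 3. Depth did not limit the members, whose lowest count in a library was 3964.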
